A study of Sus scrofa with 6 samples.

Results

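Expression of 10 axon guidance genes was followed by single-cell RNA sequencing in porcine midbrain-like organoids (pMLOs), 3-dimensional cultures in which embryonic stem cells of the pig were directed toward the ventral midbrain. The genes were taken by their symbols, and all 10 were found among the 30477 genes of the files. SEMA3A, SEMA3C, SEMA3D, SEMA3E, NTN1, SPON1 and EFNB3 encode 7 ligands, and NRP1, NRP2 and DCC encode 3 receptors. All organoids came from 1 line of embryonic stem cells, labelled IVF_1_ pESC_FIW, and 2 libraries, replicates A and B, were made at each of D11, D28 and D45, named for the day of culture (11, 28 or 45). Every group shared the same course of SB431542, Noggin, SHH and CHIR99021, then FGF8 with BDNF and ascorbic acid, Matrigel embedding, and a terminal medium with BDNF, GDNF, ascorbic acid, db-cAMP and DAPT, of which each day had received the part up to its collection. No untreated organoids were among these samples. The question was in which cells, and on which days, the ligands and the receptors were expressed.

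Growing axons are steered by secreted and surface-bound cues that their growth cones read through receptors. Class 3 semaphorins are secreted and bind neuropilins, which signal together with plexins. Netrin-1, made by the floor plate at the ventral midline, attracts or repels axons through DCC and UNC5 receptors, F-spondin is another secreted floor plate protein, and ephrin-B3 is a membrane-bound midline cue read by Eph receptors. In the ventral midbrain, floor plate cells marked by CORIN and LMX1A give rise to the dopaminergic neurons, while STMN2 marks postmitotic neurons with growing processes.

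In the RefSeq annotation of Sscrofa11.1 the 4 class 3 semaphorin genes lay within 4.15 Mb of chromosome 9. SEMA3D (ENSSSCG00000015396) is at chr9:95280637-95486109, SEMA3A (ENSSSCG00000015398) at chr9:95934937-96387950, SEMA3E (ENSSSCG00000015399) at chr9:96682178-96941074 and SEMA3C (ENSSSCG00000023784) at chr9:99114649-99432683, all on the plus strand. NTN1 (ENSSSCG00000017993) is at chr12:54089444-54292191 and EFNB3 (ENSSSCG00000017948) at chr12:52970398-52976260, on the plus strand. SPON1 (ENSSSCG00000013393) is at chr2:44967982-45299677 and NRP1 (ENSSSCG00000011102) at chr10:56280673-56430832, both on the minus strand. NRP2 (ENSSSCG00000026383) is at chr15:108974246-109092316 and DCC (ENSSSCG00000040836) at chr1:101518629-103087021, on the plus strand.

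The promoters of SEMA3E, NTN1 and SPON1, secreted ligands whose transcripts were higher in CORIN/LMX1A-positive cells on D11, are shown, from 250 bases before to 50 bases after the annotated start of each gene, 5′ to 3′ on the strand of the gene (RefSeq, Sscrofa11.1). Capitals mark a forkhead motif (TGTTTAC or TGTTTGC) and a homeodomain motif (TAATTA), searched on both strands, the letters bound by the families of the floor plate factors FOXA2 and LMX1A. The windows are chr9:96681928-96682227 for SEMA3E, chr12:54089194-54089493 for NTN1 and chr2:45299628-45299927 (minus strand) for SPON1.
SEMA3E: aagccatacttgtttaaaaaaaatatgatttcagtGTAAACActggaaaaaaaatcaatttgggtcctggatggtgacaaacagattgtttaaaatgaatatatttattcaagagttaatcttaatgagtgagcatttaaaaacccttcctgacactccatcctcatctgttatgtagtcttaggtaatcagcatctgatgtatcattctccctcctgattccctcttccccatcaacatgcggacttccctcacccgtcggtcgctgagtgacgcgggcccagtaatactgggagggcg
NTN1: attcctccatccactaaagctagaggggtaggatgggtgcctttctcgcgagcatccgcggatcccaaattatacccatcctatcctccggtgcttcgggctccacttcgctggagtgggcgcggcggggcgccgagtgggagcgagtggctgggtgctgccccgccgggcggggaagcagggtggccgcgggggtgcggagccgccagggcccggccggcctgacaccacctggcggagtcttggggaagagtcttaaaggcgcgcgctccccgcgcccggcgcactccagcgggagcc
SPON1: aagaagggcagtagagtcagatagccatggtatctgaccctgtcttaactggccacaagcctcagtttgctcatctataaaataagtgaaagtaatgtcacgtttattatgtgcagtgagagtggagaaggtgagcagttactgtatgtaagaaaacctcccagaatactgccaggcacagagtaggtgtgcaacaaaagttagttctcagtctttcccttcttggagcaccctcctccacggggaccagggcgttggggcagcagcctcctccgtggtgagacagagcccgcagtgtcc
The SEMA3E window held 1 forkhead motif, and the windows of NTN1 and SPON1 neither motif. The forkhead motif was also in the promoter of SEMA3A, the ligand that was lower in CORIN/LMX1A-positive cells, the homeodomain motif was in those of SEMA3C and NRP2, and the promoters of SEMA3D, NRP1 and DCC held neither. Of 19531 promoters of the same length, 6.10% held the forkhead and 4.11% the homeodomain motif. The GC content was 41% in the SEMA3E window, 70% in that of NTN1 and 50% in that of SPON1, against a median of 58.7%. A match describes letters in the window, not a bound site.

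The matrices hold counts of unique molecular identifiers (UMIs), each of which marks 1 captured mRNA molecule. After the filters 102940 of 104820 cell barcodes were kept, from 13870 to 21553 per library, with 106805311 to 180034791 UMIs per library. The median cell held 10757 and 8845 UMIs in D11 replicates A and B, 5505 and 8130 on D28, then 2300.5 and 4341 on D45. Between 54 and 111 barcodes, at most 0.637% of the smaller library, were shared by any pair of libraries. The labels describe the cells as midbrain dopaminergic neurons, and 8 dopaminergic markers were checked. TH and DDC, enzymes of dopamine synthesis, reached 55.1 and 70.7 CPM (UMIs of the gene per 1000000 UMIs), and NR4A2, a transcription factor of these neurons, stood at 42.3 to 85.6 CPM. DRD2 reached 19.6, RET 15.0 and SLC18A2 6.83 CPM, whereas SLC6A3, the dopamine transporter, and PITX3 stood at no more than 2.56 and 0.300 CPM in any library. A dopaminergic neuron-like cluster held from 0 to 4.29% of the cells. Markers of fibroblasts differed between libraries, with a summed level of 12.1 to 16.5 CPM on D11, 1291 and 390 CPM in D28 replicates A and B, and 842 and 2370 CPM on D45. The study describes the libraries of a day as biological replicates, the labels do not say whether they came from separate cultures, and p-values measure the spread between these libraries.

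Cells with at least 1 UMI of CORIN or LMX1A and fewer than 2 UMIs of STMN2 are called CORIN/LMX1A-positive, and cells with at least 2 UMIs of STMN2 and none of CORIN and LMX1A are called STMN2-positive. CORIN/LMX1A-positive cells numbered 6417 and 9382 in the D11 libraries, 2338 and 2743 in those of D28, and 678 and 1384 in those of D45, and STMN2-positive cells 1576 and 2153, 3885 and 4850, and 8781 and 6804. Markers that the rule did not use separated the groups on D11, and SHH and DCX did so less on D45. FOXA2, a transcription factor of the floor plate, was higher in CORIN/LMX1A-positive cells by 2.75 on the log2 scale on D11. SHH, the floor plate morphogen, was higher by 3.69, while DCX, a microtubule protein of young neurons, was lower by a log2 difference of -3.40. On D45 CORIN/LMX1A-positive cells had DCX at 95.1 and 71.6 against 181 and 174 CPM in STMN2-positive cells. SHH was at 7.04 and 11.9 against 2.82 and 4.20 CPM, and FOXA2 at 18.4 and 8.51 against 2.33 and 3.13 CPM.

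The makeup of the CORIN/LMX1A-positive group changed with the day. Floor plate-like cells, named by at least 3 markers of a clustering, made up 77.0% and 74.5% of it on D11, 41.0% and 62.2% on D28, then 4.13% and 0.867% on D45. Cells in clusters without a name made up 6.89% and 6.27% of it on D11, 48.9% and 25.7% on D28, then 21.8% and 16.3% on D45. What part of these unnamed cells is floor plate was not tested. On D45 astrocyte-like cells made up 38.1% and 45.4% of the group, and fibroblast-like cells 9.29% and 18.9%. Neuron-like cells made up 0.343% and 0.373% of it on D11, 3.46% and 3.06% on D28, then 18.4% and 12.8% on D45. The class named neuron-like formed 78.0% and 68.8% of STMN2-positive cells on D11, 54.0% and 65.9% on D28, then 40.9% and 41.3% on D45. GABAergic neuron-like cells, a separate class, formed 0.508% and 0.279%, 0.978% and 10.9%, then 8.18% and 11.2%. Unnamed cells formed 32.9% and 12.6% on D28 and 30.4% and 18.6% on D45. Mitotic-like cells formed 15.1% and 22.9% of STMN2-positive cells on D11. On D45 astrocyte-like cells formed 8.73% and 12.7% of them, and oligodendrocyte lineage-like cells 7.54% and 7.16%. Where floor plate-like cells are set against neuron-like cells below, the latter include the GABAergic and dopaminergic neuron-like classes. Cells positive for both sets of markers were left out of the comparison. They numbered 380 and 934 (D11), 3769 and 2251 (D28), then 924 and 1479 (D45). In D28 replicate A and both D45 libraries they outnumbered CORIN/LMX1A-positive cells. In D28 replicate A they held 43.7% of the DCC, 37.5% of the NTN1 and 36.8% of the EFNB3 UMIs. The shares in D28 replicate B were 23.4%, 27.5% and 25.7%. These lay near the share of the UMIs of all genes. Double-positive cells held 40556499 of 106805311 UMIs of all genes in D28 replicate A and 28081844 of 125930747 in D28 replicate B. They also held most dopaminergic neuron-like cells of D28 (472 and 276) and D45 (59 and 235). The STMN2-positive group had 114 and 33, then 6 and 32. Of these double-positive cells 4.33% to 20.8% per library were called doublets (droplets holding 2 cells). The number of calls in a library was set in advance, so this share ranks cells and is not a measured doublet rate. A difference between days in the CORIN/LMX1A-positive group therefore compares different mixtures of cell types.

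**Figure D1:**
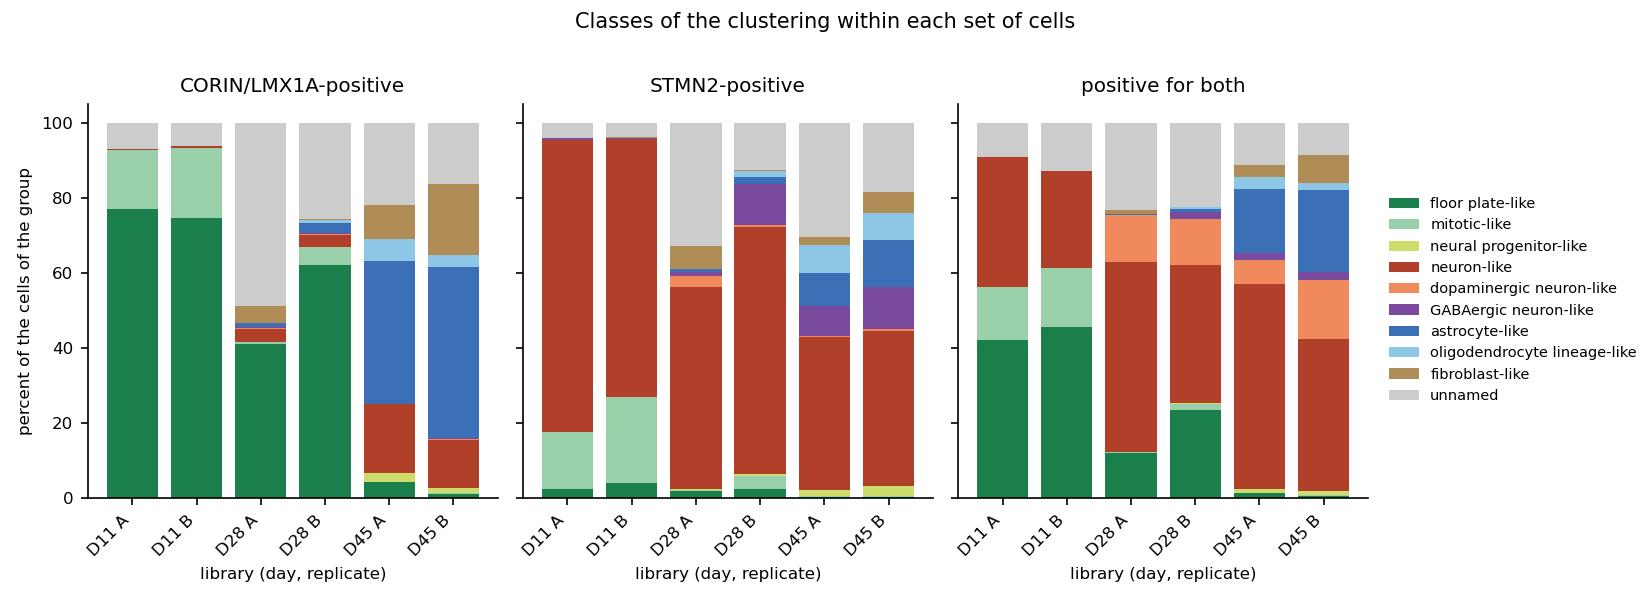
Classes of the clustering, as percent of the cells (y axis), within CORIN/LMX1A-positive, STMN2-positive and double-positive cells of each library (x axis, day and replicate). Floor plate-like cells fill 77.0% and 74.5% of the CORIN/LMX1A-positive bars on D11 but 4.13% and 0.867% on D45, where astrocyte-like cells make up the largest class.

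Ligands and receptors were set against each other in the 2 groups of cells of the same libraries (edgeR quasi-likelihood test with the library as a block, Benjamini-Hochberg adjusted over 19507 genes, threshold 0.05). On D11, 4 members were higher and 4 lower in CORIN/LMX1A-positive cells, beside 25.6% and 21.4% of all genes tested. The 4 higher genes were all ligands, and all 3 receptors were lower. On D28, 5 were higher and 4 lower, beside 26.2% and 23.4% of all genes, and again the higher genes were ligands and the 3 receptors were lower. On D45, 6 were higher and 2 lower, beside 18.9% and 17.3% of all genes, and the higher genes were 5 ligands and NRP1. The median log2 difference of the 7 ligands was 2.56, 2.29 and 1.71 on the 3 days, that of the 3 receptors -1.30, -0.76 and -0.67, and that of all genes tested 0.07, -0.00 and -0.01.

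**Figure D2:**
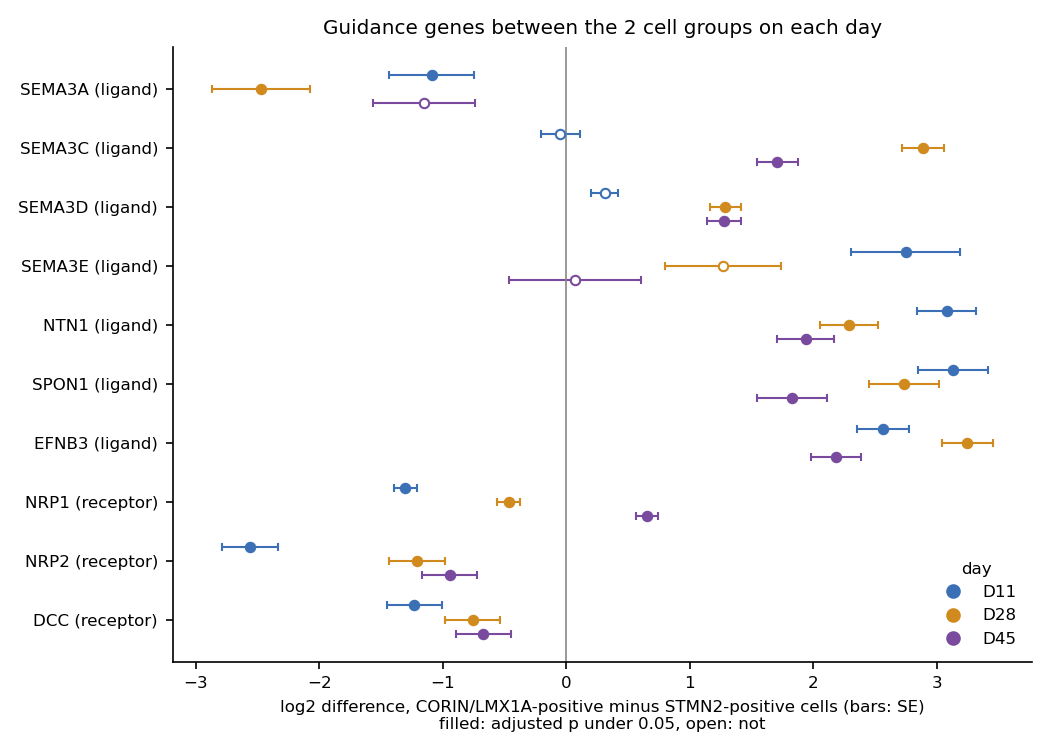
Log2 difference between CORIN/LMX1A-positive and STMN2-positive cells (x axis) for each gene (y axis) and day, with 2 libraries per day. Bars show the standard error from the joint fit of all libraries, not the spread within a day. Filled points pass the threshold (edgeR, adjusted p under 0.05). NTN1, SPON1 and EFNB3 lie to the right on all 3 days and NRP2 and DCC to the left, while NRP1 moves from -1.30 on D11 to 0.65 on D45.

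NTN1 encodes netrin-1. In CORIN/LMX1A-positive cells it stood at 524 and 434 CPM in D11 replicates A and B, 289 and 537 on D28, then 237 and 211 on D45. In STMN2-positive cells it stood at 59.5 and 65.9, 87.8 and 103, and 49.4 and 81.5 CPM. Each library of the first group was above every library of the second on the same day. The log2 difference was 3.08 (SE 0.24, adjusted p = 3.34e-05) on D11, 2.29 (SE 0.23, adjusted p = 0.000145) on D28 and 1.94 (SE 0.23, adjusted p = 0.000828) on D45.

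SPON1 encodes F-spondin, which promotes the outgrowth and adhesion of commissural axons. Its level in CORIN/LMX1A-positive cells was 1588 and 1261 CPM on D11, 519.8 and 1088 on D28, then 292 and 167 on D45, against 197 and 164, 108 and 164, and 55.5 and 82.4 CPM in STMN2-positive cells. The groups did not overlap on any day. CORIN/LMX1A-positive cells held 68.0% and 71.6% of the SPON1 UMIs on D11 but 17.4% and 17.2% on D45. Cells positive for neither set of markers held 40.7% and 41.2% of them on D45. Of the UMIs of all genes, CORIN/LMX1A-positive cells held 74497575 of 158236282 and 97034895 of 180034791 on D11. On D45 they held 6957846 of 118380630 and 15283304 of 126899867, and cells positive for neither held 41907754 and 45448764. The fall of the SPON1 share thus went with a smaller group. Log2 differences were 3.13 (SE 0.29, adjusted p = 7.41e-05), 2.74 (SE 0.28, adjusted p = 0.000157) and 1.83 (SE 0.28, adjusted p = 0.00233).

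EFNB3 encodes ephrin-B3. It stood at 88.3 and 77.1 CPM in the CORIN/LMX1A-positive cells of D11, at 382 and 555 on D28 and at 163 and 106 on D45, so D28 was the highest day. STMN2-positive cells had 15.4 and 15.6, 54.9 and 59.5, and 28.7 and 34.6 CPM, and were lower in every library. CORIN/LMX1A-positive cells held 75.4% and 75.4% of the EFNB3 UMIs on D11 but 24.6% and 28.5% on D45. STMN2-positive cells held 36.8% and 29.4% of them on D45. Of all 118380630 and 126899867 UMIs on D45, CORIN/LMX1A-positive cells held 6957846 and 15283304, and STMN2-positive cells 59194863 and 48316805. The EFNB3 share of STMN2-positive cells was thus below their share of all UMIs. The fall in CORIN/LMX1A-positive cells went with a smaller group, as for SPON1. The log2 difference was 2.56 (SE 0.21, adjusted p = 4.19e-05) on D11, 3.25 (SE 0.21, adjusted p = 1.62e-05) on D28 and 2.18 (SE 0.20, adjusted p = 0.00029) on D45. The calls of NTN1, SPON1 and EFNB3 on the 3 days passed the threshold under all 21 alternatives tried, among them each library left out, called doublets removed, fibroblast-like cells removed and cells thinned to 2000 UMIs.

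The 4 class 3 semaphorins did not move together. SEMA3C had 63.9 and 53.3 CPM in CORIN/LMX1A-positive cells on D11, 158 and 198 on D28, then 82.4 and 75.6 on D45. In STMN2-positive cells the values were 76.6 and 58.8, 22.7 and 34.5, and 20.9 and 32.6 CPM. On D11 the groups overlapped (log2 difference -0.05, SE 0.16, adjusted p = 0.828), whereas on D28 and D45 they were apart, with log2 differences of 2.89 (SE 0.17, adjusted p = 1.17e-05) and 1.71 (SE 0.17, adjusted p = 0.000357). Both later calls passed under all 21 alternatives.

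SEMA3E, a ligand of plexin D1, was highest on D11. Its level in CORIN/LMX1A-positive cells was 170 and 145 CPM on D11, 25.1 and 15.8 on D28, then 11.8 and 4.45 on D45, and in STMN2-positive cells 26.5 and 25.3, 4.80 and 16.2, and 9.21 and 6.23 CPM. The groups were apart on D11 (log2 difference 2.75, SE 0.44, adjusted p = 0.00137). On D28 and D45 the difference was 1.27 (SE 0.47, adjusted p = 0.0545) and 0.08 (SE 0.53, adjusted p = 0.932), without passing the threshold. The D28 difference of SEMA3E passed under 10 of 21 alternatives, among them without D28 replicate B (2.58), with called doublets removed (1.30) and with cells thinned to 2000 UMIs (1.70), and it was 0.21 without D28 replicate A.

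SEMA3D, whose product also binds neuropilins, was lower on D28 and D45 than on D11 in both groups. It had 27.8 and 24.2 CPM in CORIN/LMX1A-positive cells on D11, 11.4 and 9.30 on D28, then 7.33 and 7.92 on D45, and in STMN2-positive cells 24.6 and 22.0, 5.11 and 4.80, and 3.28 and 3.58 CPM. The difference was 0.31 (SE 0.11, adjusted p = 0.0504) on D11, 1.29 (SE 0.12, adjusted p = 0.000106) on D28 and 1.28 (SE 0.14, adjusted p = 0.000531) on D45. Without either D28 library the D11 difference of SEMA3D passed the threshold, at 0.32 and 0.31. The D45 call was lost when floor plate-like cells were set against neuron-like cells (0.71, adjusted p = 0.585 by edgeR), where SEMA3D rested on 1 and 3 UMIs in the floor plate-like cells.

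SEMA3A, which repels axons through neuropilin-1, was the ligand that was lower in CORIN/LMX1A-positive cells. It stood there at 18.2 and 13.6 CPM on D11, 4.38 and 5.78 on D28, then 8.91 and 5.76 on D45. STMN2-positive cells had 51.5 and 26.7, 14.9 and 64.5, and 14.6 and 19.4 CPM, with D28 replicate B the highest. The log2 difference was -1.09 (SE 0.35, adjusted p = 0.0333) on D11, -2.47 (SE 0.40, adjusted p = 0.00141) on D28 and -1.15 (SE 0.41, adjusted p = 0.0638) on D45. Mitotic-like cells, the class with the most SEMA3A on D11, formed 15.1% and 22.9% of STMN2-positive cells that day. They formed 15.7% and 18.8% of CORIN/LMX1A-positive cells. Their part in the D11 difference was not tested. The D11 call of SEMA3A was lost under 7 of 21 alternatives, among them without D11 replicate A (-0.81), D11 replicate B (-1.35) or either D45 replicate (-1.09 in both cases), and the D45 difference passed without D28 replicate A (-1.19) or B (-1.21). Much of the SEMA3A signal of D11 lay in neither group, with 72.2% and 57.2% of its UMIs in cells that had none of CORIN and LMX1A and fewer than 2 UMIs of STMN2. These cells held 59809854 of 158236282 and 50380215 of 180034791 UMIs of all genes.

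DCC, the attractive netrin receptor, had 706 and 550.0 CPM in the STMN2-positive cells of D11, 297 and 840 on D28, then 284 and 263 on D45. In CORIN/LMX1A-positive cells it had 270 and 211, 224 and 283, and 165 and 149.8 CPM, so the receptor was detected in both groups. It was lower in CORIN/LMX1A-positive cells by a log2 difference of -1.23 (SE 0.22, adjusted p = 0.00254) on D11, -0.76 (SE 0.22, adjusted p = 0.0247) on D28 and -0.67 (SE 0.22, adjusted p = 0.0495) on D45. The D28 call of DCC was lost under 6 of 21 alternatives, among them without D28 replicate B (-0.21), D45 replicate A (-0.78) or D45 replicate B (-0.78). The D45 call was lost under 13 of 21 alternatives, and the difference was 0.0384 (adjusted p = 0.916 by edgeR) between floor plate-like and neuron-like cells. The other losses included leaving out D11 replicate A or B (-0.67 each), D45 replicate A (-0.68) or D45 replicate B (-0.75).

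NRP2, a neuropilin that binds semaphorins such as SEMA3C, had 127 and 121 CPM in the STMN2-positive cells of D11, 32.3 and 81.8 on D28, then 119.7 and 133 on D45. CORIN/LMX1A-positive cells had 20.9 and 17.1, 17.0 and 21.6, and 47.3 and 75.0 CPM, below the other group in every library of the day. Log2 differences were -2.56 (SE 0.23, adjusted p = 6.13e-05), -1.21 (SE 0.23, adjusted p = 0.00307) and -0.94 (SE 0.22, adjusted p = 0.0132). The D45 call of NRP2 was lost without D45 replicate A (-0.69) and with no library block.

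NRP1, the neuropilin that binds SEMA3A, changed sides. On D11 it had 80.6 and 75.3 CPM in STMN2-positive and 29.6 and 27.2 CPM in CORIN/LMX1A-positive cells, and on D28 105 and 116 against 58.9 and 77.6 CPM. On D45 it was 117 and 169 against 175 and 236 CPM, so that both CORIN/LMX1A-positive values were above both STMN2-positive values. The log2 difference was -1.30 (SE 0.09, adjusted p = 2.04e-05) on D11, -0.47 (SE 0.09, adjusted p = 0.00377) on D28 and 0.65 (SE 0.09, adjusted p = 0.00152) on D45. On D45 the difference of NRP1 turned to -0.61 when floor plate-like cells (49 and 46 cells) were set against neuron-like cells in place of the marker groups. Fibroblast markers summed to 1608 and 3187 CPM in CORIN/LMX1A-positive and to 485 and 1638 CPM in STMN2-positive cells on D45. With fibroblast-like cells removed the difference was 0.47, and it passed the threshold. The D45 call of NRP1 was lost with cells thinned to 2000 UMIs (0.27, adjusted p = 0.164 by edgeR) and with no library block (0.65, adjusted p = 0.0805), and it passed under 18 of 21 alternatives. The D28 call was lost with no library block (-0.47), with double-positive cells in both groups (-0.19) and with the classes (-0.38).

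**Figure D3:**
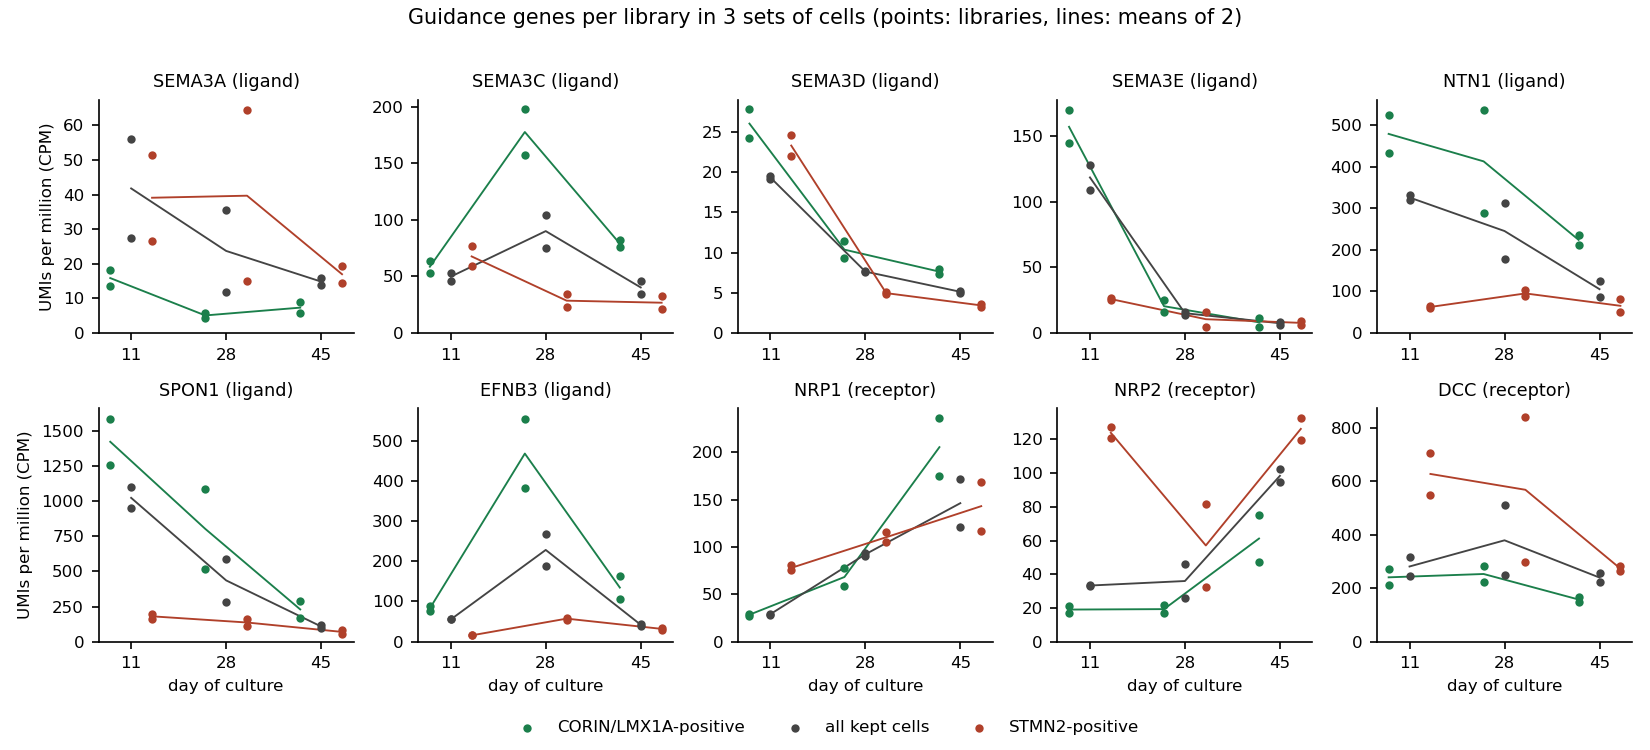
CPM per library (y axis, linear, from 0) on each day (x axis) for the 10 genes in all kept cells, CORIN/LMX1A-positive cells and STMN2-positive cells. Points are libraries and lines join the means of 2, and the 3 sets are drawn side by side around each day. NTN1, SPON1 and EFNB3 are above in CORIN/LMX1A-positive cells on every day, SEMA3C from D28, and NRP1 crosses by D45.

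The difference between the groups, CORIN/LMX1A-positive minus STMN2-positive, was itself compared between days in the same fit. An increase can also be a negative difference that became smaller in size, so that the groups became more alike. That was so for NRP2, and for NRP1 from D11 to D28. From D11 to D45 the difference increased for SEMA3C (1.76, SE 0.23, adjusted p = 0.00159), SEMA3D (0.97, SE 0.18, adjusted p = 0.00686), NRP1 (1.96, SE 0.13, adjusted p = 7.83e-05) and NRP2 (1.62, SE 0.31, adjusted p = 0.00845). It decreased for SEMA3E (-2.68, SE 0.67, adjusted p = 0.0246), NTN1 (-1.14, SE 0.32, adjusted p = 0.0358) and SPON1 (-1.31, SE 0.38, adjusted p = 0.0422). These 4 increases and 3 decreases stood beside 12% and 12.8% of all genes tested. The count of 7 was 3 without D11 replicate A, D11 replicate B or D45 replicate B. In each of these fits SEMA3E, NTN1 and SPON1 were lost (-2.62, -0.95 and -1.29, then -2.76, -1.35 and -1.34, then -2.36, -0.79 and -0.71). SEMA3D was lost without D11 replicates A and B (0.97 and 0.95), NRP2 without D45 replicate B (1.25) and SEMA3E also without D45 replicate A (-3.10). SEMA3C and NRP1 passed whichever library was left out. With no library block 2 members passed. With floor plate-like against neuron-like cells in place of the marker groups, the change was 0.00329 for NTN1 and 0.86 for SPON1, opposite in sign to the marker groups. EFNB3 passed at 1.84 (adjusted p = 0.0125 by edgeR). The calls of SEMA3D, NRP1 (adjusted p = 0.0537 by edgeR) and NRP2 were lost with these classes as well. From D11 to D28, a comparison added after the data were seen, the difference increased for SEMA3C (2.94, SE 0.23), SEMA3D (0.98, SE 0.17), NRP1 (0.84, SE 0.13) and NRP2 (1.35, SE 0.31) and decreased for no member past the threshold, beside 10.5% and 9.15% of all genes. By that same test 8 of the 10 members had an unadjusted p under 0.05. Those of SEMA3D, NRP1 and NRP2 were lost without either D11 replicate, at 0.98 and 0.96, 0.83 and 0.83, and 1.44 and 1.25.

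Within CORIN/LMX1A-positive cells each member was compared between days (edgeR, 18183 genes). From D11 to D28, 3 members rose and 3 fell, beside 14.4% and 13.2% of all genes. EFNB3 rose by 2.35 (SE 0.24, adjusted p = 0.000861), SEMA3C by 1.45 (SE 0.16, adjusted p = 0.00112) and NRP1 by 1.11 (SE 0.21, adjusted p = 0.009) on the log2 scale. SEMA3E fell by 3.06 (SE 0.42, adjusted p = 0.00261), SEMA3A by 1.79 (SE 0.25, adjusted p = 0.00293) and SEMA3D by 1.46 (SE 0.22, adjusted p = 0.00359). The call of NRP1 was lost without either D11 replicate (1.18 and 1.14) and that of SEMA3D without D11 replicate A (-1.35), whereas NTN1 (-0.78) and SPON1 (-1.50) passed without D28 replicate B.

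From D28 to D45, 2 members rose and 6 fell in these cells, beside 14.3% and 11.2% of all genes. Both neuropilins rose, NRP1 by 1.499 (SE 0.21, adjusted p = 0.00443) and NRP2 by 1.58 (SE 0.26, adjusted p = 0.00734). The log2 fold changes of those that fell were -1.91 for EFNB3 (adjusted p = 0.00273), -1.90 for SPON1 (adjusted p = 0.0118), -1.55 for SEMA3E (adjusted p = 0.0401), -1.27 for SEMA3C (adjusted p = 0.00281), -0.97 for NTN1 (adjusted p = 0.033) and -0.79 for DCC (adjusted p = 0.0197). Within the floor plate-like class, with 49 and 46 cells on D45, the changes were 0.15 for NTN1 (adjusted p = 0.792), 0.08 for SPON1 (adjusted p = 0.920) and 0.15 for EFNB3 (adjusted p = 0.818). None of the 8 calls passed by edgeR in that class, where the change was -0.09 for SEMA3C (adjusted p = 0.873), -1.56 for SEMA3E (adjusted p = 0.204) and 0.33 for DCC (adjusted p = 0.502). For NRP1 it was 0.39 (adjusted p = 0.387) and for NRP2 1.48 (adjusted p = 0.0649). The 8 calls became 4 without D45 replicate B, when SEMA3E (-1.004), NTN1 (-0.97), SPON1 (-1.62) and DCC (-0.80) no longer passed. That of NTN1 was also lost without D45 replicate A (adjusted p = 0.16) or either D11 replicate (-1.02), that of SEMA3E without D11 replicate A or B (-1.61 and -1.60) and that of DCC without D45 replicate A (-0.81). The comparisons of D28 with D11 and of D45 with D28 share the D28 libraries.

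Within STMN2-positive cells few members passed (edgeR, 18643 genes). From D11 to D28 EFNB3 rose by 1.67 (SE 0.19, adjusted p = 0.00468), and SEMA3D and SEMA3C changed by -2.44 (SE 0.24, adjusted p = 0.00341) and -1.47 (SE 0.28, adjusted p = 0.0225), beside 4.81% of all genes higher and 4.54% lower. These 3 calls were all lost without D11 replicate A or B (EFNB3 1.62 and 1.72, SEMA3D -2.39 and -2.48, SEMA3C -1.31 and -1.62), and 5 and 8 members passed without D28 replicates A and B. From D28 to D45 none of the 10 passed by edgeR, beside 0.783% and 0.365% of all genes, while 5 had an unadjusted p under 0.05 and DESeq2 called 3. Without D28 replicates A and B, 6 and 4 passed. The D28 libraries stood apart from each other for several members, with SEMA3A at 14.9 and 64.5 CPM, DCC at 297 and 840 CPM and NRP2 at 32.3 and 81.8 CPM in replicates A and B. GABAergic neuron-like cells made up 0.978% and 10.9% of their STMN2-positive cells and fibroblast-like cells 6.13% and 0.247%, and the part of the GABAergic neuron-like cells in the result was not tested. With fibroblast-like cells removed, an alternative chosen after the data were seen, 5 members passed from D11 to D28 and 1 from D28 to D45.

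In sums over all kept cells, fewer cells of a type and less RNA per cell cannot be told apart. From D11 to D28, 2 members rose and 3 fell (edgeR, 22192 genes), beside 12.5% and 10.6% of all genes. SEMA3E had 128 and 109 CPM on D11, 13.8 and 16.4 on D28, then 8.66 and 6.22 on D45. Its change from D11 to D28 was the largest of the 10. The log2 fold change was -3.24 (SE 0.20, adjusted p = 0.000621) to D28 and -1.17 (SE 0.19, adjusted p = 0.0179) to D45. EFNB3 went from 55.1 and 55.1 CPM to 189 and 267 and back to 39.0 and 44.8, with log2 fold changes of 1.77 (SE 0.19, adjusted p = 0.00162) and -2.58 (SE 0.19, adjusted p = 0.00342). SPON1 had 1099 and 949.9 CPM on D11, 284 and 589 on D28, then 98.9 and 117 on D45, lower at each step (-1.53, SE 0.31, adjusted p = 0.0152, and -2.12, SE 0.32, adjusted p = 0.0147). SEMA3D changed by -1.60 (SE 0.19, adjusted p = 0.00237) and NRP1 by 1.41 (SE 0.23, adjusted p = 0.00671) from D11 to D28. Without D11 replicate A or B the calls of SPON1 (-1.44 and -1.57) and NRP1 (1.38 and 1.51) were lost, which left 3, and without D28 replicate B 8 members passed.

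From D28 to D45, 1 member rose and 5 fell in the same sums, beside 4.47% and 4.93% of all genes. NRP2, at 25.7 and 46.2 CPM on D28 and 94.5 and 102 on D45, rose by 1.34 (SE 0.22, adjusted p = 0.0204). Besides SEMA3E, EFNB3 and SPON1, the members that fell were SEMA3C, from 75.5 and 105 to 34.7 and 45.9 CPM (-1.29, SE 0.21, adjusted p = 0.0185), and NTN1, from 178 and 313 to 86.6 and 124 CPM (-1.33, SE 0.28, adjusted p = 0.0356). The count of 6 was 0 without D45 replicate A, 1 without D45 replicate B, and 3 without D11 replicate A or B. SEMA3C (-1.55 to -1.07), SEMA3E (-1.38 to -0.98) and NTN1 (-1.66 to -1.06) were lost in all 4 of these fits, SPON1 (-1.97 and -2.29) and NRP2 (1.43 and 1.24) without D45 replicates A and B, and EFNB3 without D45 replicate A (-2.44). CORIN (-2.75, adjusted p = 0.00972) and FOXA2 (-2.77, adjusted p = 0.00254) fell over the same interval. SEMA3A was at 56.2 and 27.5, 11.9 and 35.5, and 13.9 and 15.8 CPM and DCC at 317 and 245, 248 and 511, and 258 and 222 CPM, and neither passed in either step.

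The clustering, in which the members and all other guidance genes were left out of the genes used, gave 42 clusters, and 33 were named in 9 classes. Levels in these classes are descriptions, since whole transcriptomes set the clusters. Floor plate-like cells held SPON1 at 1654 and 1325 CPM on D11, 775 and 1343 on D28, then 1635 and 768 on D45, and NTN1 at 533 and 449, 342 and 605, and 689 and 434 CPM. EFNB3 stood there at 100.1 and 86.8, 534 and 653, and 975 and 453 CPM, and SEMA3C at 74.5 and 59.7, 217 and 226, and 184 and 279 CPM. For each of these genes the D45 levels in the class thus overlapped those of D28, while the class itself shrank from 1687 and 2769 cells to 49 and 46. The D28 class was almost wholly 1 cluster (1672 and 2715 cells) led by the interferon-response genes IFI6, ISG15 and MX1, and the D11 class lay in other clusters.

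On D28 and D45 floor plate-like cells were the highest class for NTN1, SPON1, EFNB3 and SEMA3C, and for SPON1, EFNB3 and SEMA3C no other class overlapped them. For NTN1 the next class on D45 was the dopaminergic neuron-like one, whose libraries overlapped the floor plate-like ones. In that class NTN1 was at 89.0 and 147 CPM on D28 and at 463 and 238 CPM on D45, from 493, 444, 440 and 901 UMIs. SEMA3E was at 5.23 and 4.96 CPM there on D28, when astrocyte-like cells were its highest class (58.7 to 76.4 CPM), and at 50.5 and 41.0 CPM on D45, when the dopaminergic neuron-like class was the highest of 9 and overlapped no other. These SEMA3E levels rest on 29 and 15 UMIs on D28 and 48 and 155 UMIs on D45. DCC stood in this class at 313 and 989 CPM on D28 and at 792 and 593 CPM on D45, on D45 again the highest of 9 classes with no overlap. The D45 values of replicate A come from 65 cells and those of replicate B from 277.

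**Figure D4:**
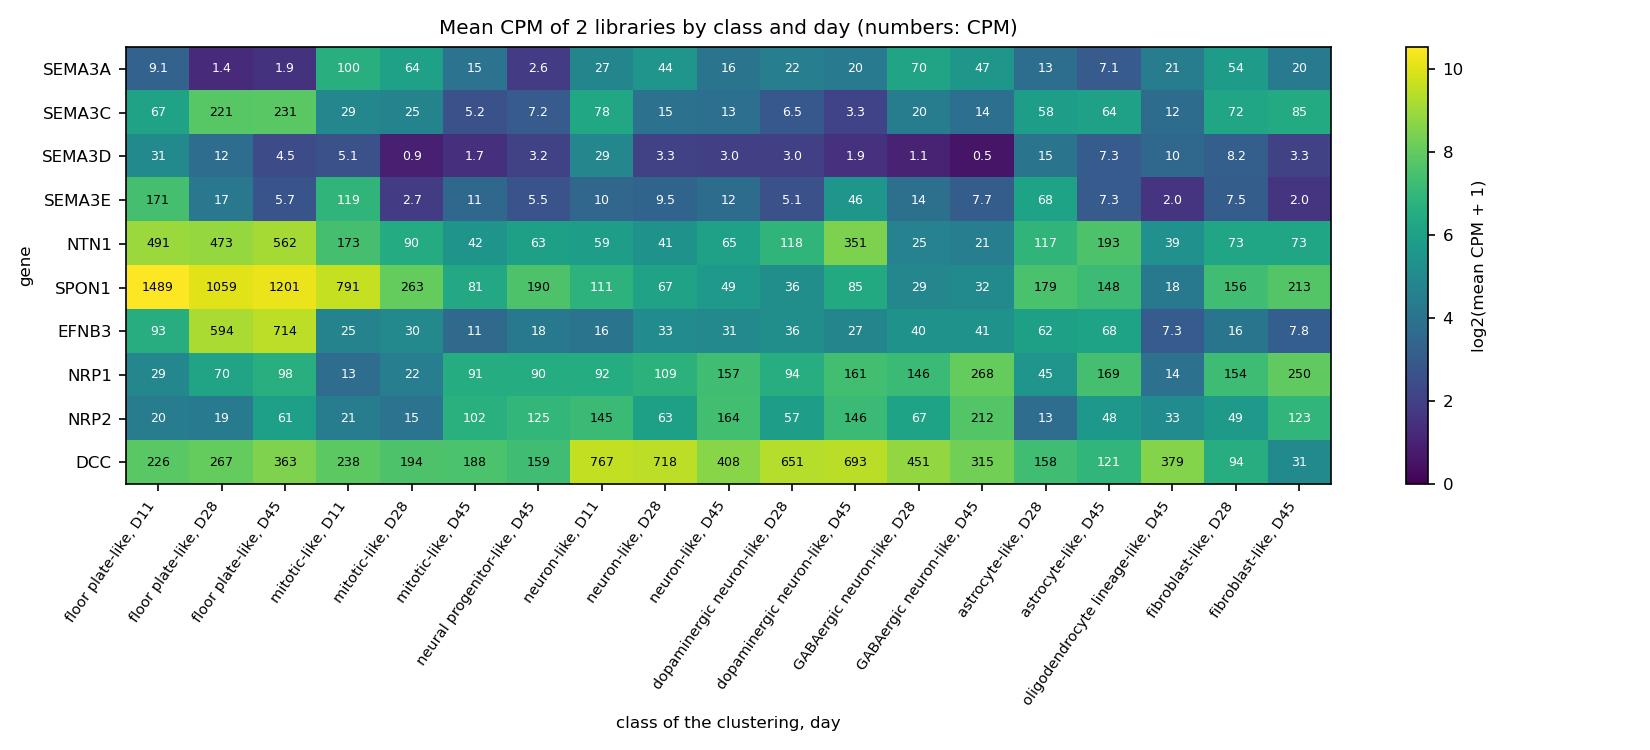
Mean CPM of 2 libraries (numbers, colour on a log2 scale) for each gene (y axis) in each class and day (x axis), for classes with at least 20 cells in both libraries. Levels can be read along a gene but not between genes, since counts are not scaled by length. SPON1, NTN1, EFNB3 and SEMA3C are highest in floor plate-like cells on D28 and D45, and SEMA3E is highest in floor plate-like cells on D11, astrocyte-like cells on D28 and dopaminergic neuron-like cells on D45.

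SEMA3A of D11 was highest outside neurons, at 68.4 to 132 CPM in the mitotic-like cells of D11, above neuron-like cells (19.8 to 34.8 CPM) and floor plate-like cells (8.63 to 9.48 CPM). Of the 42 clusters, 2 of D11 led by MECOM, with DBX1 among their first genes, had the most SEMA3A, at 152 and 143 CPM against a median of 13.7 CPM over clusters. Both were counted as mitotic-like. The first, of 1959 cells, held 6 of the mitotic markers, with TOP2A and CENPF among its leading genes. The second, of 4277 cells, rested on 3 of them (CENPF, BIRC5 and CCNB1), and its leading genes, among them PMCH, WNT8B, OTX1 and EMX2, included no mitotic marker. On D28 and D45 GABAergic neuron-like cells were the highest class, at 61.1 and 79.3 and at 39.1 and 54.8 CPM, and on D28 they overlapped mitotic-like, fibroblast-like and neuron-like cells. The value of D28 replicate A rests on 19 UMIs in 43 cells. SEMA3E peaked at 443 CPM in 3482 cells that formed a floor plate-like cluster led by RSPO2, almost all from D11, which also had the most SEMA3D (43.0 CPM). DCC was highest in a neuron-like cluster led by CRABP1 (1796 CPM, 1066 cells) and then in one led by TAC3 (1308 CPM), of whose 1907 cells 1551 came from D28 replicate B. NRP1 was highest in a fibroblast-like cluster led by COL1A1 (312 CPM) and then in the GABAergic neuron-like cluster (252 CPM), and NRP2 in a neuron-like cluster led by LHX9 (267 CPM). SEMA3C was highest in a small fibroblast-like cluster of 641 cells (254 CPM), followed by the floor plate-like cluster of D28 (223 CPM).

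Across the 42 clusters likeness between members is given as Pearson correlations of log levels that share libraries and depth. NTN1 and SPON1 were the most alike (r = 0.807), followed by NTN1 and EFNB3 (r = 0.731). Of 10618 genes compared, KITLG (r = 0.920), FZD6 (r = 0.910) and CORIN (r = 0.895) were closest to NTN1. SULF1, a sulfatase of heparan sulfate, was closest to SPON1 (r = 0.873) and BAALC to EFNB3 (r = 0.865). Among the semaphorins the nearest genes were CHST11 for SEMA3A (r = 0.795), TGFBI for SEMA3C (r = 0.737), RELL1 for SEMA3D (r = 0.768) and FAM81A for SEMA3E (r = 0.749). Among the receptors they were ENOX1 for DCC (r = 0.850), RHBDL1 for NRP1 (r = 0.807) and PCSK2 for NRP2 (r = 0.790).

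The share of cells with at least 1 UMI followed the same order for the midline cues. NTN1 was detected in 90.3% and 84.6% of CORIN/LMX1A-positive cells on D11, 71.0% and 84.8% on D28, then 50.7% and 61.6% on D45, against 33.4% and 32.1%, 19.7% and 26.9%, and 17.2% and 25.3% of STMN2-positive cells. Thinned to 2000 UMIs per cell, the shares were 58.1% and 54.6%, 38.0% and 54.6%, and 28.8% and 33.0%, against 9.27% and 11.3%, 9.28% and 11.9%, and 7.46% and 11.5%. Shallower cells were left out of the thinned shares, from 209 to 1302 per library among CORIN/LMX1A-positive and from 141 to 3044 among STMN2-positive cells. Median depths were 7593 to 14329 UMIs in the first and 4513 to 11302.5 UMIs in the second group. Free RNA in the droplets also gives UMIs to cells that do not express a gene, and the shares in STMN2-positive cells are not corrected for it. SPON1 was detected in 95.7% and 91.9%, and 69.0% and 83.7%, of CORIN/LMX1A-positive cells on D11 and D28, and in 41.2% and 40.7%, and 23.8% and 35.7%, of STMN2-positive cells.

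A wider list of 71 guidance genes was counted in the same fits. Of 67 tested between the groups, 16 were higher and 38 lower in CORIN/LMX1A-positive cells on D11, 18 and 38 on D28, then 16 and 26 on D45, with a median log2 difference of -1.14, -0.88 and -0.30 against 0.07, -0.00 and -0.01 over all genes. The higher genes were 23.9%, 26.9% and 23.9% of the list, near the 25.6%, 26.2% and 18.9% of all genes tested, and the lower ones 56.7%, 56.7% and 38.8%, beside 21.4%, 23.4% and 17.3%. DSCAM, a receptor that also binds netrin-1, had 1.91 and 2.31 CPM in CORIN/LMX1A-positive and 266 and 232 CPM in STMN2-positive cells on D11 (log2 difference -6.72, SE 0.15), and the adhesion molecule L1CAM 0.510 and 0.804 against 64.1 and 63.5 CPM (-6.43, SE 0.26). The repulsive netrin receptors UNC5A, UNC5C and UNC5D were lower on all 3 days, whereas UNC5B was lower on D11 (-0.81, SE 0.20), higher on D28 (0.75, SE 0.19, with overlapping libraries) and did not pass on D45 (-0.07, SE 0.20). Also lower on D11 and D28 were the receptors ROBO1, ROBO2 and ROBO3. Eph receptors were divided. EPHB2, EPHB4, EPHA3, EPHA5 and EPHA7 were higher on D11, and EPHA4, EPHA6, EPHA8 and EPHA10 lower. For D28, EPHB3, EPHB4 and EPHA5 were higher, and EPHB1, EPHA3, EPHA4, EPHA6 and EPHA10 lower. EPHB4 alone was higher at D45, while EPHB1, EPHB2, EPHA4, EPHA6 and EPHA10 were lower. SLIT3 was lower on D11 but higher at both later days. Of 16 other semaphorins, 10 were lower and 2 higher on D11, then 10 and 3, and 5 and 5. SLIT2, a midline repellent, was higher in CORIN/LMX1A-positive cells, at 3308 and 2669 against 428 and 417 CPM on D11 (2.97, SE 0.11) and at 1050.5 and 1759 against 343 and 529 CPM on D28 (1.91, SE 0.11). Of 8 plexins tested, the semaphorin receptors, 2 were higher and 5 lower on D11 and on D28, and PLXND1, the receptor of SEMA3E, was among the higher ones on D11, at 5.62 and 5.31 against 0.269 and 0.740 CPM (3.56, SE 0.36).

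Between days, in whole organoids, 13 of 70 genes tested rose and 9 fell from D11 to D28, among them EPHA6 (3.23, SE 0.19) and SLIT3 (-1.73, SE 0.20). These were 18.6% and 12.9% of the list, beside 12.5% and 10.6% of all genes. From D28 to D45, 8 rose and 6 fell, among them DSCAM (1.51, SE 0.37) and EPHA7 (-1.91, SE 0.24), or 11.4% and 8.57%, beside 4.47% and 4.93%. Within CORIN/LMX1A-positive cells 13 of 67 rose and 14 fell from D11 to D28 (19.4% and 20.9%, beside 14.4% and 13.2% of all genes), and 25 rose and 6 fell from D28 to D45 (37.3% and 8.96%, beside 14.3% and 11.2%). The later rises included 6 of 8 plexins and 7 of 16 other semaphorins, and the median log2 change of the list was 0.60 against 0.04 over all genes. Within STMN2-positive cells 4 rose and 13 fell from D11 to D28, led by SLIT3 (-3.64, SE 0.25), which were 5.97% and 19.4% of the list beside 4.81% and 4.54% of all genes. From D28 to D45, 3 rose and 3 fell, 4.48% each, beside 0.783% and 0.365%. The difference, CORIN/LMX1A-positive minus STMN2-positive, increased for 24 and decreased for 9 of the 67 genes from D11 to D45. These were 35.8% and 13.4%, beside 12% and 12.8% of all genes. An increase can also be a negative difference that became smaller in size. Genes of the list that were lower in CORIN/LMX1A-positive cells numbered 38 on D11 and 26 on D45.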

How the data were processed

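Single cells of 6 libraries were sequenced with a 3′ droplet assay that counts UMIs. The authors aligned reads with Cell Ranger 8.0.1 (Seurat 4.3.0 and the build Sscrofa11.1 are also named in the submitters' processing notes) and deposited raw counts per gene and cell. From these counts, cells with 200 to 7000 detected genes and at most 10% of UMIs from 37 mitochondrial genes were kept. UMIs were summed per library, for all kept cells and for the marker groups, since cells are not replicates, and sums needed at least 20 cells. Sums were tested with edgeR 4.0.16 (R 4.3.3; TMM, filterByExpr, quasi-likelihood, two-sided) over all genes, with the library as a block between cell groups, and p was Benjamini-Hochberg adjusted at 0.05. DESeq2 1.42.0 was an alternative. CPM are a gene's UMIs per 1000000 UMIs of the sum. A 3′ count is not scaled by gene length, so levels were compared only within a gene.

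Cells were clustered (scanpy 1.11.5, python 3.11.15) on 30 principal components with 20 neighbours at a resolution of 2, chosen after a first clustering at 0.8 had been seen. Doublets were called in each library by likeness to simulated cell pairs but kept. The number called was set in advance at 0.4% per 1000 cells, and the cells with the highest scores were taken. A cluster was named from at least 3 markers, each in at least 10% of its cells and 1.5-fold higher. The scripts were tested on simulated data. The 10 members, the guidance list and the marker lists were chosen with earlier results of these data known. Named genes were the members, the group markers, up to 3 rises and 3 falls of the guidance list per comparison with no overlap between libraries, genes of its receptor families, and the 3 nearest patterns per member among genes of at least 5 CPM. Genes leading a cluster were named after their values were seen. Promoter sequences are shown for 3 members and motifs given for 9, and the remaining promoter and 1 further motif searched are not reported here.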

Additional observations from a re-analysis of the deposited data

Results flagged for a closer look

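The difference between CORIN/LMX1A-positive and STMN2-positive cells changed between days for 7 members, by a test of the change itself (edgeR, adjusted over all genes). From D11 to D45 the log2 difference moved by 1.76 for SEMA3C, 0.97 for SEMA3D, 1.96 for NRP1 and 1.62 for NRP2, and by -2.68 for SEMA3E, -1.14 for NTN1 and -1.31 for SPON1. From D11 to D28 it moved by 2.94 for SEMA3C, 0.98 for SEMA3D, 0.84 for NRP1 and 1.35 for NRP2. The 7 became 3 without D11 replicate A, D11 replicate B or D45 replicate B and 2 with no library block, and with the classes of the clustering the change was 0.00329 for NTN1 and 0.86 for SPON1. From D11 to D28 the calls of SEMA3D, NRP1 and NRP2 were lost without either D11 replicate. With the classes of the clustering the D11 to D45 calls of SEMA3D, NRP1 and NRP2 were lost as well. The share of floor plate-like cells in the CORIN/LMX1A-positive group was 74.5% to 77.0% on D11, 41.0% to 62.2% on D28 and 0.867% to 4.13% on D45. Cells in clusters without a name were 25.7% to 48.9% of this group on D28.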

How the results depend on the processing

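Of 64 calls on single members, followed through 1267 alternative values, 1120 kept their direction and call, 139 lost the call and 8 reversed; of 46 differences not called, 113 of 903 alternative values passed. The calls that reversed did so when floor plate-like and neuron-like classes replaced the marker groups: on D45 NRP1 was -0.61 and DCC 0.0384, the change of the difference was 0.00329 for NTN1 and 0.86 for SPON1, and the changes from D28 to D45 were 0.15 for NTN1, 0.0828 for SPON1, 0.15 for EFNB3 and 0.33 for DCC. EFNB3, not called by the marker groups, had a change of the difference of 1.84 and passed. With these classes the counts of members were 4 for the change of the difference and 0 from D28 to D45. The class had 49 and 46 cells on D45, and the cause was not tested.

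Leaving out 1 library gave, in whole organoids, 3 to 8 members for D28 against D11 and 0 to 8 for D45 against D28, 7 to 9, 8 to 9 and 6 to 9 between the groups on D11, D28 and D45, and 3 to 8 for the change of the difference. It gave 4 to 8 and 4 to 9 within CORIN/LMX1A-positive cells and 0 to 8 and 0 to 6 within STMN2-positive cells. With no library block 5 members differed on D45 and the difference changed for 2. The difference changed for 3 with at least 1 UMI of STMN2, for 4 with at least 2 UMIs of CORIN or LMX1A, and for 4 with CORIN alone. In STMN2-positive cells 5 members passed from D11 to D28 by DESeq2, without a filter on low counts, with CORIN alone and, chosen after seeing the data, without fibroblast-like cells. From D28 to D45 DESeq2 called 3, no filter 1, STMN2 at 1 UMI 1, double-positive cells in both groups 2, LMX1A alone 2 and removal of fibroblast-like cells 1.

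The replicate letters did not pair the libraries (correlations of deviations between days of -0.55, 0.20 and -0.35 in whole sums). With the replicate letter as a block 5 and 5 members passed in whole organoids, 6 and 6 in CORIN/LMX1A-positive cells, and 3 and 0 in STMN2-positive cells. With 2 libraries per day, a member that did not pass may still differ.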
